A study of Mus musculus with 8 samples.

Results

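Expression of the major histocompatibility complex (MHC) class I genes and of the genes that load class I molecules with peptide was compared in the jejunum, the stretch of small intestine between duodenum and ileum, of naive C3H/HeJ (C3H) and C57BL/6 (B6) mice. With earlier results of these data known, the genes were chosen by name. They were the classical H2-K and H2-D genes, every H2-Q, H2-T and numbered H2-M gene, H2-Bl, and 10 genes of peptide production and loading. This gave 42 genes out of 56941 in the count table, 32 of them class I genes (3 classical, 8 Q, 6 T, 14 M and H2-Bl) and 10 loading genes. There were 4 C3H libraries (replicates 1, 3, 4 and 5) and 4 B6 libraries (replicates 2, 3, 4 and 5), all of batch 1. Both groups were unchallenged inbred mice, given as 6 to 8 weeks old and kept in shared cages for 8 weeks or longer; the labels do not tell at which end of that time the age applies. The labels name no transgene, deletion or agent. C3H/HeJ carries the k haplotype of the H2 complex and B6 the b haplotype, and the mouse reference genome derives from B6. Nothing in the labels ties 1 library to 1 mouse, so p-values reflect only how far these libraries spread, which may be technical.

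Class I molecules are cell-surface heavy chains that pair with the light chain beta-2 microglobulin and show peptides from inside the cell to CD8 T cells and natural killer cells. Proteasomes cut the peptides, the TAP transporter carries them into the endoplasmic reticulum, aminopeptidases trim them, and tapasin holds the empty heavy chain to TAP until a peptide fits. The classical genes K and D are expressed by most nucleated cells, whereas the Q, T and M genes are mostly non-classical, less variable and often tissue-restricted. Epithelial cells of the small intestine express several of them beside a dense population of intraepithelial lymphocytes. Transcription of the classical genes is driven by NLRC5 with RFX proteins at the conserved S, X and Y boxes and by NF-kappa B and interferon regulatory factors at sites just upstream of these.

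The 250 bases before the start site are shown for genes on which the results below turn, read 5′ to 3′ on the gene's own strand from the RefSeq promoter table of GRCm38.p6, a B6-derived assembly; the C3H sequence was not used here. H2-K1, H2-D1 and H2-Q6 are shown because they hold the same kappa B sequence of 11 bases, given in capitals. For H2-Q7 the capitals mark the shorter kappa B core, GGGA and CC with 4 bases between them, which it matched on the opposite strand. In H2-Q2, the gene with the largest difference in mean CPM between the strains after H2-K1, capitals mark the Y box CCAAT, also on the opposite strand. In H2-T23, H2-T22 and B2m they mark the core of the interferon-stimulated response element, GAAA and GAAA with 2 bases between them on either strand.
H2-K1 (chr17:34000348-34000597, minus strand): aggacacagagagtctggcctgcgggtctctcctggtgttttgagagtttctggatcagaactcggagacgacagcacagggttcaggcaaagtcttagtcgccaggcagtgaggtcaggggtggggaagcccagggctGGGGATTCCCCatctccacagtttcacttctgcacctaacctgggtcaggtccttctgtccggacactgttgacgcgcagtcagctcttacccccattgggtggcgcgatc
H2-D1 (chr17:35262844-35263093, plus strand): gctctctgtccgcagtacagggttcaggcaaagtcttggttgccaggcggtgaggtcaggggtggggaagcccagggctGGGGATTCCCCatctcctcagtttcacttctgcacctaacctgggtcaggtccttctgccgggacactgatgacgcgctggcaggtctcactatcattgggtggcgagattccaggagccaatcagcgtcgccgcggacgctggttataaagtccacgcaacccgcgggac
H2-Q6 (chr17:35424600-35424849, plus strand): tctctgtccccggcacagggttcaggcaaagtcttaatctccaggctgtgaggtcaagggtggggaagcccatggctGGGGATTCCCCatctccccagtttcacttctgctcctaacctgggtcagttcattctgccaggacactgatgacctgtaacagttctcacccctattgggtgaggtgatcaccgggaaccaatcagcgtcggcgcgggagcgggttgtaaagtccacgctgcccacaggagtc
H2-Q7 (chr17:35438905-35439154, plus strand): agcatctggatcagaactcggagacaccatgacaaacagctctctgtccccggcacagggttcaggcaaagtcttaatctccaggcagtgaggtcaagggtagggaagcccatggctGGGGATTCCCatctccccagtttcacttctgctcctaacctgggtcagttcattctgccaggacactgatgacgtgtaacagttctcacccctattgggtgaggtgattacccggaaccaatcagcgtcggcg
H2-Q2 (chr17:35342057-35342306, plus strand): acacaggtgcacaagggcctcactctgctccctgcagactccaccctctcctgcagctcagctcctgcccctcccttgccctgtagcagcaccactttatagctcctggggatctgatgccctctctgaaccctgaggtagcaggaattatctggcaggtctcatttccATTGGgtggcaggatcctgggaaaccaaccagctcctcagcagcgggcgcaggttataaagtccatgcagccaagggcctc
H2-T23 (chr17:36032702-36032951, minus strand): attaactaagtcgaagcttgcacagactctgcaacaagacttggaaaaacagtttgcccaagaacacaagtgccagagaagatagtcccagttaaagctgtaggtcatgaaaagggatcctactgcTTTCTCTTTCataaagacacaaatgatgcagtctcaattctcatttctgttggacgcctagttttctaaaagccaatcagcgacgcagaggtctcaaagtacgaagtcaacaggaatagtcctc
H2-T22 (chr17:36042743-36042992, minus strand): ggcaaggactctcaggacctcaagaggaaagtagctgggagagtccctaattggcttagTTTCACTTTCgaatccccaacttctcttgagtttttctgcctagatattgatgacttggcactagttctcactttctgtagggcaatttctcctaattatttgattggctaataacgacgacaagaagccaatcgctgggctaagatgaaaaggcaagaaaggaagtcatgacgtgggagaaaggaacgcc
B2m (chr2:122147437-122147686, plus strand): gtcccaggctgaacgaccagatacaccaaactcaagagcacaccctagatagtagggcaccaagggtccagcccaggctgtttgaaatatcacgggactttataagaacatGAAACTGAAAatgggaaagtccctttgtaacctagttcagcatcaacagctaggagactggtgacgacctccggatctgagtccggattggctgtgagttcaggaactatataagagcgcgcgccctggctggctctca

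Of the 42 members 30 had an entry in that table, 23 class I and 7 loading genes; H2-K2, H2-Q1, H2-Q3, H2-Q5, H2-T10, H2-T24, H2-M10.5-ps1, H2-M6-ps, H2-Bl, Nlrc5, Tap2 and Tapbpl had none. Motifs were searched on both strands of the 300-base window of 250 bases before and 50 after the start. Members were counted as genes and the background as promoter entries, of which a gene can have more than 1. The 11-base kappa B sequence was found in 3 members and in 10 of 32851 promoters of the table (0.0304%). H2-K1 has another entry, not shown (chr17:34000334-34000583), that also holds it. The shorter kappa B core, which overlaps the 11-base sequence, was found in 10 members and in 20.7% of all promoters. The Y box was found in 24 members against 37.4% of all promoters, and TGACG, part of the X2 box, in 14 members against 20.8%. The interferon core was found in 4 members, which were B2m, Erap1, H2-T22 and H2-T23, against 3.44% of all promoters. Sites that depart from its letters were not counted, so a gene without a match may still hold such an element. The STAT site TTCNNNGAA was found in 3 members, against 8.30% of all promoters. The H2-K1 and H2-D1 promoters shared an identical run of 47 bases that holds the 11-base sequence. H2-Q6 and H2-Q7 shared a run of 66 bases. Such matches describe letters in the reference sequence and not binding.

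The libraries held 37205896 to 58251332 counts each, and 18025 genes passed the filter on low counts and were tested with edgeR's quasi-likelihood test. Of these 3857 (21.4%) had a Benjamini-Hochberg adjusted p under 0.05, 11.3% higher and 10.1% lower in C3H, and the median log2 fold change was 0.03. All log2 fold changes below are C3H over B6, and levels are CPM, read counts made relative to the TMM-scaled size of each library. Markers of enterocytes summed to 66666 to 104513 CPM in C3H and 76726 to 94919 CPM in B6, and all 15 of them had counts. Exocrine pancreas genes, in a list cut down after seeing the data (without Zg16, Spink1, Rnase1 and Clps), reached 3817 and 1702 CPM in C3H 3 and C3H 5 and 308 CPM in B6 2, against 10.2 to 98.2 CPM in the other libraries. With the 2 libraries of each strain highest in that list left out (C3H 3, C3H 5, B6 2 and B6 3), the differences of H2-Q1, H2-T22, H2-T23, H2-M3, Tap2, Tapbp and Psmb10 kept their signs and no longer passed the test (adjusted p of 0.0558 to 0.517), and the part of pancreas RNA in them was not tested.

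Summed over the 32 class I genes, CPM were lower in C3H jejunum, while single genes differed in direction and size. Several Q genes had few or no counts in C3H, and H2-Bl was higher. For the falls, loss of k haplotype reads and lower expression cannot be told apart. Of the 32 class I genes 20 were tested, and 4 of them rose and 11 fell in C3H, beside 11.3% and 10.1% of all genes; 5 did not pass. Their median log2 fold change was -0.53. In 15 of the 20 the libraries of the strains did not overlap, against 24.4% of all tested genes, and 11 of the 20 changed at least 2-fold, against 7.86% of all tested genes. Of the 10 loading genes 1 rose, 4 fell and 5 did not pass, with a median of -0.16. The 12 members that were not tested, H2-K2 and 11 M genes, had too few counts.

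**Figure D1:**
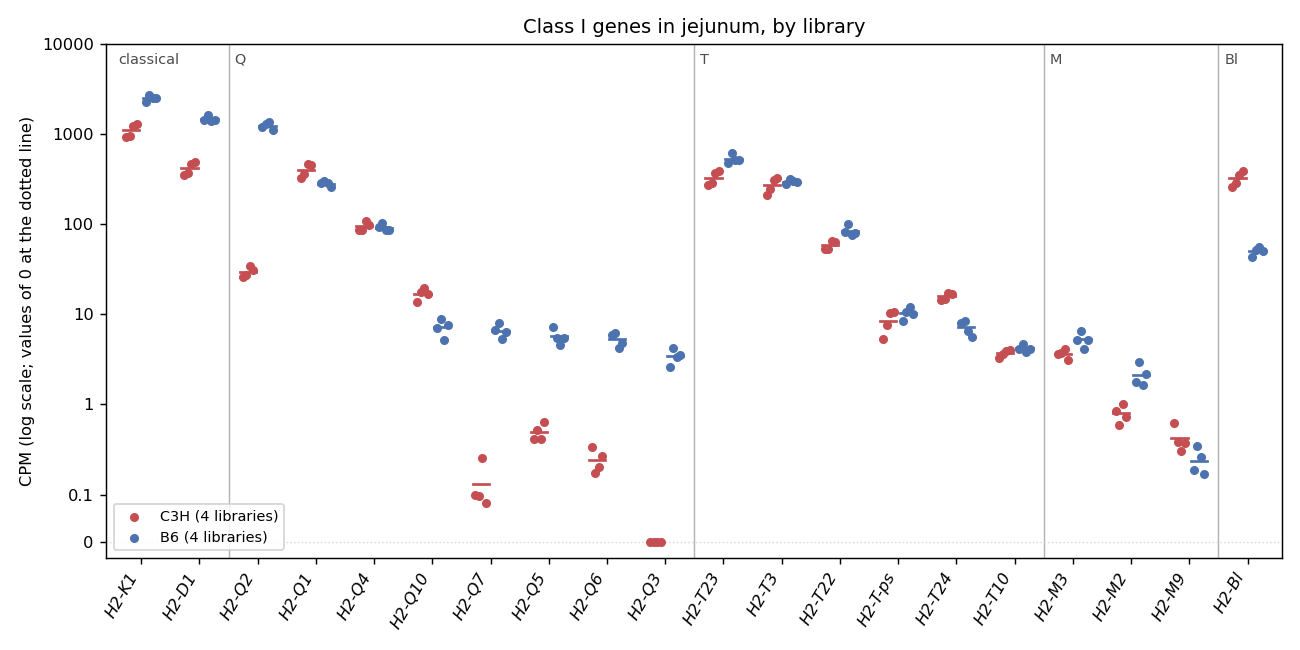
CPM on a log scale of the 20 tested class I genes, in the 4 C3H (red) and 4 B6 (blue) libraries; each point is 1 library, short lines are means, and values of 0 sit on the dotted line. H2-Q2, H2-Q7, H2-Q5, H2-Q6 and H2-Q3 lie far lower in C3H and H2-Bl lies higher, while points of H2-Q4 and H2-T3 overlap.

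The classical genes present peptides to CD8 T cells and are the most abundant class I transcripts of most tissues. H2-K1 (ENSMUSG00000061232) had 936, 945, 1237 and 1300 CPM in the C3H libraries, against 2298, 2710, 2522 and 2488 CPM in the B6 libraries. Every C3H library lay below every B6 library, a 2.27-fold difference (log2 fold change -1.18, standard error 0.14, adjusted p = 0.000149). H2-D1 (ENSMUSG00000073411) had 354, 372, 471 and 488 CPM in C3H, against 1417, 1629, 1380 and 1432 CPM in B6. The gap was wider than for H2-K1, again with no overlap (log2 fold change -1.80, standard error 0.13, adjusted p = 3.26e-06). H2-K2, annotated as a transcribed pseudogene, had 19 counts over the C3H libraries and 11 over the B6 libraries and was not tested. Within each library the log2 ratio of H2-D1 to H2-K1 counts was -1.39 ± 0.03 in C3H and -0.77 ± 0.08 in B6 (SD, n = 4 each). The ratio was 1.53-fold lower in C3H (exact permutation test, two-sided, p = 0.0286, the smallest that 70 splits allow; adjusted p = 0.0327 over the 8 ratios tested), so H2-D1 counts fell further than H2-K1 counts. Unequal loss of k haplotype reads at the 2 genes was not tested.

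Among the 8 Q genes 2 rose and 5 fell, beside 11.3% and 10.1% of all tested genes. Their median log2 fold change was -3.97, the same with H2-Q3 at its bound. H2-Q2 (ENSMUSG00000091705), a non-classical gene whose product is little studied, had 25.9, 27.4, 33.99 and 30.9 CPM in C3H, against 1200, 1278, 1360 and 1106 CPM in B6. In B6 it was among the abundant class I transcripts, and in C3H it was a minor one (log2 fold change -5.39, standard error 0.14, adjusted p = 7.90e-10). H2-Q6 and H2-Q7 encode Qa-2, a molecule held in the membrane by a lipid anchor. H2-Q7 (ENSMUSG00000060550) had 0.0981, 0.0960, 0.256 and 0.0806 CPM in C3H, against 6.75, 7.94, 5.36 and 6.35 CPM in B6. The C3H values rested on 23 counts in all, and 1210 were counted in B6; C3H 4 stood above the other C3H libraries. The log2 fold change came to -5.65 over all libraries (standard error 0.27, adjusted p = 1.19e-07), and it was -6.11 with C3H 4 left out. H2-Q6 had 0.334, 0.173, 0.205 and 0.269 CPM in C3H, against 5.90, 6.27, 4.29 and 4.87 CPM in B6, 44 and 972 counts (log2 fold change -4.42, adjusted p = 1.54e-07). Both genes had few counts in C3H libraries and low levels in B6 libraries.

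H2-Q5, annotated as a polymorphic pseudogene, had 0.412, 0.518, 0.409 and 0.645 CPM in C3H, against 7.23, 5.46, 4.58 and 5.48 CPM in B6. This was an 11.5-fold fall with no overlap (log2 fold change -3.52, standard error 0.20, adjusted p = 4.45e-07). H2-Q3, an unprocessed pseudogene, had 0 counts in each C3H library, against 2.63, 4.24, 3.38 and 3.59 CPM in B6, where 648 counts were recorded. It was at least 208-fold lower in C3H, taking 3 counts summed over the 4 libraries as the floor, a limit for counting error only. The remaining Q genes did not follow these. H2-Q1 had 328, 357, 463 and 452 CPM in C3H, against 283, 304, 284 and 256 CPM in B6, and rose 1.42-fold (log2 fold change 0.50, standard error 0.12, adjusted p = 0.0126). H2-Q10, which encodes a class I protein secreted mainly by liver, had 13.8, 17.8, 19.7 and 16.8 CPM in C3H, against 6.99, 8.99, 5.14 and 7.52 CPM in B6. It rose 2.38-fold, and the C3H libraries were all above those of B6 (log2 fold change 1.25, standard error 0.16, adjusted p = 0.000248). H2-Q4, whose product Qb-1 can be secreted, had 86.4, 85.3, 110 and 98.6 CPM in C3H, against 92.1, 102, 85.9 and 86.8 CPM in B6. The strains overlapped, and the difference was 0.05 on the log2 scale with a 95% interval of -0.17 to 0.27 (adjusted p = 0.790).

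Of the 6 T genes 1 rose, 2 fell and 3 did not pass, while 11.3% of all tested genes rose and 10.1% fell. The median log2 fold change of the T genes was -0.23. H2-T23 (ENSMUSG00000067212) encodes the heavy chain of Qa-1, which shows leader peptides of other class I molecules to the CD94-NKG2 receptors of natural killer and T cells. It had 270, 288, 374 and 385 CPM in C3H, against 480, 616, 518 and 518 CPM in B6. All C3H libraries were below those of B6, by 1.62-fold on average (log2 fold change -0.69, standard error 0.14, adjusted p = 0.00356). H2-T22, whose product is a ligand of a subset of gamma delta T cells, had 52.5, 53.2, 64.9 and 62.8 CPM in C3H, against 82.0, 101, 75.5 and 79.6 CPM in B6. It fell 1.45-fold with no overlap (log2 fold change -0.54, standard error 0.11, adjusted p = 0.00577). H2-T10, a close relative of H2-T22 annotated as a polymorphic pseudogene, had 3.32, 3.61, 3.96 and 4.03 CPM in C3H, against 4.17, 4.73, 3.81 and 4.12 CPM in B6, with overlap (log2 fold change -0.17, adjusted p = 0.345).

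H2-T3 (ENSMUSG00000054128) encodes the TL antigen, which intestinal epithelial cells display and which binds CD8 alpha homodimers of intraepithelial lymphocytes. It had 212, 247, 312 and 325 CPM in C3H, against 277, 316, 304 and 294 CPM in B6. The C3H libraries spread on both sides of the B6 values, and the log2 fold change was -0.12 with a 95% interval of -0.41 to 0.17 (adjusted p = 0.579). H2-T24, a non-classical gene of the same block, had 14.3, 14.7, 17.2 and 16.97 CPM in C3H, against 8.10, 8.48, 6.47 and 5.57 CPM in B6. It rose 2.21-fold without overlap (log2 fold change 1.15, standard error 0.14, adjusted p = 0.000137). The pseudogene H2-T-ps had 5.28, 7.60, 10.3 and 10.5 CPM in C3H, against 8.50, 10.6, 12.1 and 9.99 CPM in B6 (log2 fold change -0.29, adjusted p = 0.348).

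H2-Bl (ENSMUSG00000073406), named for the blastocyst and annotated as a polymorphic pseudogene, showed the largest rise of the tested members. It had 260, 285, 355 and 392 CPM in C3H, against 42.95, 51.2, 55.5 and 50.4 CPM in B6. The lowest C3H library was more than 4 times the highest B6 library, and the mean difference was 6.46-fold (log2 fold change 2.69, standard error 0.14, adjusted p = 2.64e-07).

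The M genes were low or silent. H2-M3, whose product presents peptides that begin with formyl-methionine, as bacterial and mitochondrial proteins do, had 3.63, 3.74, 4.12 and 3.12 CPM in C3H, against 5.23, 6.49, 4.16 and 5.20 CPM in B6. The highest C3H and the lowest B6 library nearly touched, and the fall was 1.44-fold (log2 fold change -0.53, standard error 0.15, adjusted p = 0.0272). This call ended without C3H 1, C3H 3, C3H 5, B6 3 or B6 5, left out in turn (adjusted p up to 0.0800). H2-M2 had 0.844, 0.595, 1.02 and 0.725 CPM in C3H, against 1.78, 2.97, 1.66 and 2.19 CPM in B6, a 2.701-fold fall with no overlap (log2 fold change -1.43, adjusted p = 0.00111). H2-M9 had 0.628, 0.384, 0.307 and 0.376 CPM in C3H, against 0.186, 0.343, 0.259 and 0.167 CPM in B6, and did not pass (log2 fold change 0.85, 95% interval 0.15 to 1.55, adjusted p = 0.0823). Of the other 11 M genes 7 had no count in any library, which allows up to 3 counts over the 4 libraries of a strain: H2-M1, H2-M11, H2-M10.2, H2-M10.3, H2-M10.4, H2-M10.5 and H2-M10.5-ps1. The H2-M10 genes are known from sensory neurons of the vomeronasal organ. H2-M10.6 had 1, 4, 1 and 1 counts in the C3H libraries and 0 in each B6 library, too few to compare, and H2-M10.1 had 3 counts in each strain. H2-M5 had 18 counts in C3H and 6 in B6, and the pseudogene H2-M6-ps had 20 and 5.

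**Figure D2:**
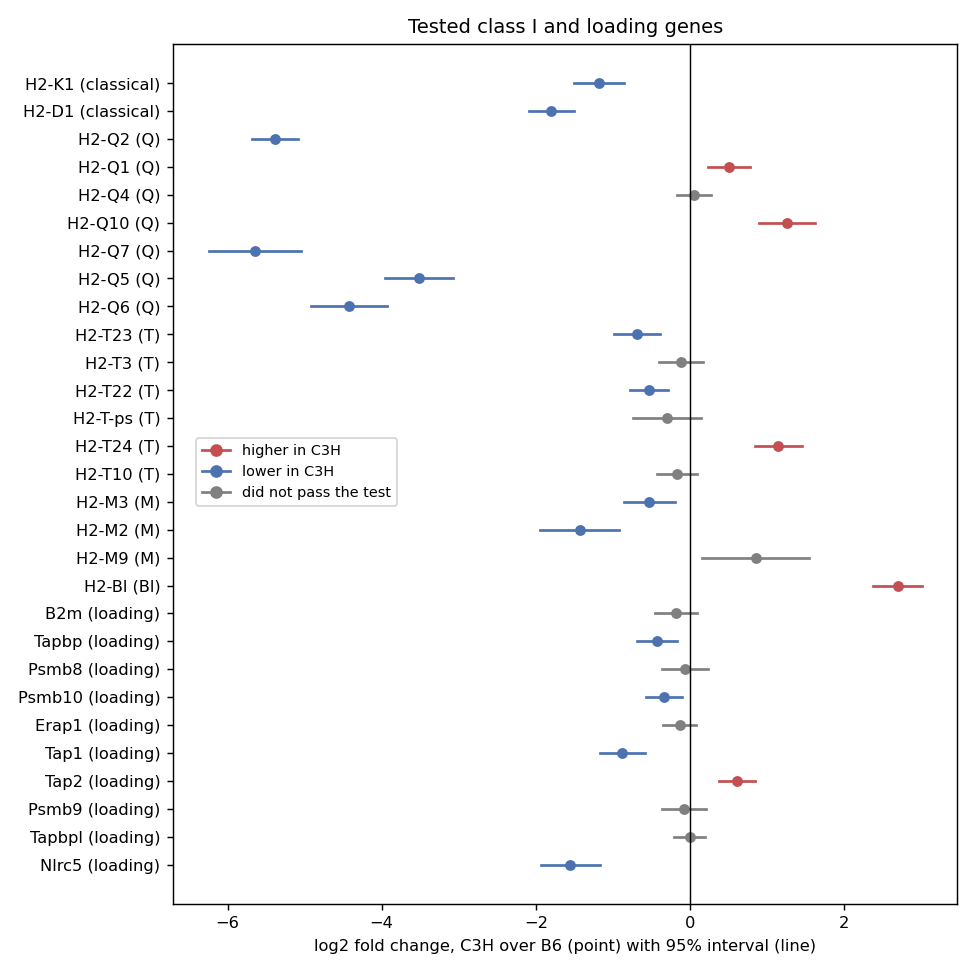
Log2 fold change, C3H over B6, of the tested class I and loading genes (points) with 95% intervals (lines), coloured by whether the gene was higher, lower or did not pass the test; H2-Q3, with 0 counts in C3H, is left out. H2-Bl at 2.69 and H2-Q7 at -5.65 mark the ends of the range.

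Summed over the 32 class I genes, the C3H libraries had 2568, 2710, 3478 and 3587 CPM, against 6230, 7174, 6637 and 6365 CPM in the B6 libraries. The C3H mean was 0.467 of the B6 mean. For the classical genes that ratio was 0.384, for the Q genes 0.331 and for the T genes 0.736. The make-up of the class I counts differed as well. H2-Q2 took 0.965% ± 0.071 of them in C3H and 18.7% ± 1.4 in B6 (SD, n = 4 each), and H2-D1 took 13.7% ± 0.1 in C3H and 22.2% ± 0.9 in B6. H2-Bl took 10.5% ± 0.4 in C3H and 0.758% ± 0.068 in B6. The share of H2-Q1 was 13.0% ± 0.3 in C3H and 4.27% ± 0.22 in B6. H2-K1 held 35.8% ± 0.7 in C3H and 37.9% ± 0.9 in B6. H2-T3, whose level did not pass the test, took 8.85% ± 0.39 in C3H and 4.51% ± 0.10 in B6, since the total was smaller in C3H. In each of these 6 genes the libraries of the strains did not overlap in share, and no test was run on the shares.

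**Figure D3:**
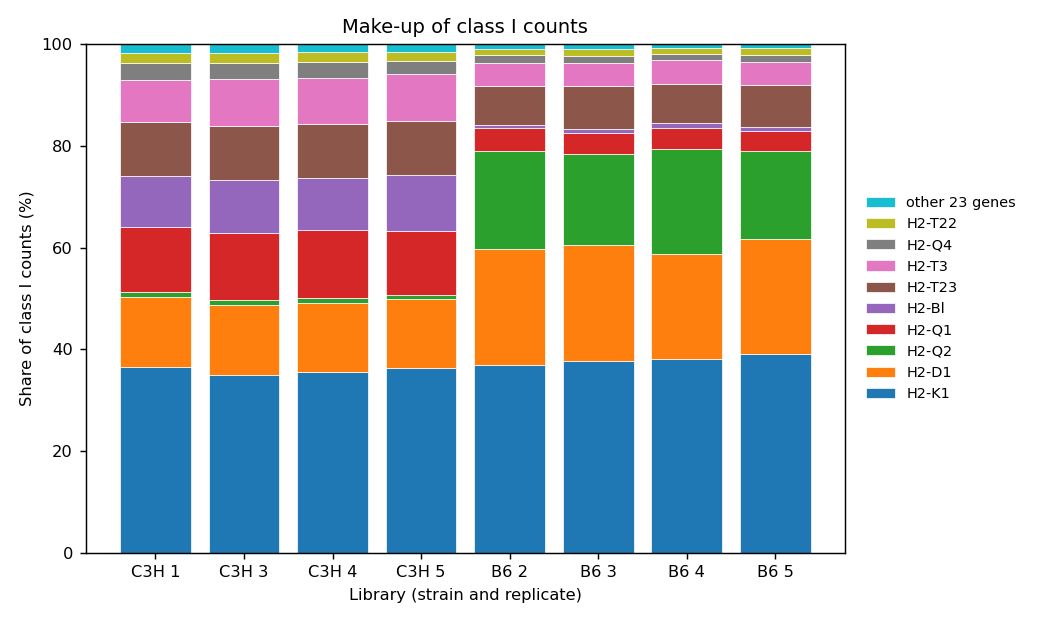
Share (%) of all class I counts taken by each gene, 1 bar per library, C3H on the left and B6 on the right; the last segment pools the remaining 23 genes. H2-Bl (10.5%) and H2-Q1 (13.0%) are wide in C3H, and H2-Q2 (18.7%) and H2-D1 (22.2%) are wide in B6.

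Levels of different genes were compared as CPM per kb of exon. In C3H the order was B2m (2113 CPM per kb), H2-K1 (376), H2-Bl (192), H2-D1 (163), H2-Q1 (140), H2-T23 (114) and H2-T3 (100.4), and from H2-Bl to H2-T3 the libraries of each neighbouring pair overlapped. In B6 the order was B2m (2393 CPM per kb), H2-K1 (852), H2-D1 (568), H2-Q2 (567), H2-T23 (184) and H2-T3 (109). Of these neighbours H2-D1 and H2-Q2 overlapped in B6. H2-Bl was the third member by level in C3H, and it was at 29.7 CPM per kb in B6. H2-Q2 was at 13.5 CPM per kb in C3H, within the range of Tap1.

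The light chain gene B2m (ENSMUSG00000060802), on chromosome 2, had 1611, 1701, 1897 and 2059 CPM in C3H, against 2018, 2012, 2227 and 1975 CPM in B6. The highest C3H library lay within the B6 range, and the log2 fold change was -0.18 with a 95% interval of -0.45 to 0.09 (adjusted p = 0.352). The log2 ratio of B2m counts to H2-K1 plus H2-D1 counts was 0.26 ± 0.10 in C3H and -0.95 ± 0.13 in B6 (SD, n = 4 each). B2m counts thus exceeded the classical heavy chain counts in every C3H library and fell short of them in every B6 library. The ratio was 2.31-fold higher in C3H, and that of B2m to H2-K1 alone 2.01-fold higher (exact permutation p = 0.0286, adjusted p = 0.0327, for both). Counts in these ratios are not scaled to transcript length. Per kb of exon, B2m (2113 CPM per kb in C3H, 2393 in B6) stood above H2-K1 (376 and 852) and above H2-D1 (163 and 568). The part of lost k haplotype reads at H2-K1 and H2-D1 in these ratios was not tested.

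Nlrc5 (ENSMUSG00000074151), the class I transactivator, showed the largest fall of the loading group. It had 6.06, 6.57, 6.96 and 5.45 CPM in C3H, against 24.4, 20.1, 14.4 and 14.6 CPM in B6. The B6 libraries spread widely and all stood above the C3H libraries, by 2.93-fold on average (log2 fold change -1.55, standard error 0.17, adjusted p = 7.02e-05).

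The 2 chains of the peptide transporter changed in opposite directions. Tap1 had 54.3, 62.3, 79.6 and 72.8 CPM in C3H, against 134, 141, 105 and 115 CPM in B6, and fell 1.84-fold (log2 fold change -0.88, standard error 0.13, adjusted p = 0.000688). Tap2 had 137, 150.4, 180 and 183 CPM in C3H, against 104, 118, 101 and 103 CPM in B6, and rose 1.53-fold (log2 fold change 0.61, standard error 0.11, adjusted p = 0.00179). For both genes the libraries of the strains were apart. The log2 ratio of Tap1 to Tap2 counts was -1.28 ± 0.07 in C3H and 0.21 ± 0.13 in B6 (SD, n = 4 each), a 2.80-fold difference with no overlap (exact permutation p = 0.0286, adjusted p = 0.0327). Tap2 therefore had more counts than Tap1 in each C3H library and fewer in each B6 library, without scaling to transcript length. Scaled per kb of exon, Tap2 stood above Tap1 in both strains (42.98 and 12.28 CPM per kb in C3H, 28.17 and 22.60 in B6). Tapbp, which encodes tapasin, had 238, 264, 317 and 326 CPM in C3H, against 344, 405, 403 and 389 CPM in B6. It fell 1.35-fold without overlap (log2 fold change -0.43, standard error 0.12, adjusted p = 0.0210), and this call ended without C3H 3 or without B6 3 (adjusted p up to 0.0618). Relative to Tap1, Tapbp counts were 1.36-fold higher in C3H (exact permutation p = 0.0286, adjusted p = 0.0327; adjusted p = 0.0653 without any 1 C3H library). Tapbpl, whose product TAPBPR edits bound peptides, had 48.0, 49.1, 56.4 and 56.5 CPM in C3H, against 51.5, 57.7, 54.9 and 46.9 CPM in B6. The values overlapped, with a log2 fold change of -0.01 and a 95% interval of -0.21 to 0.20.

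The immunoproteasome subunits Psmb8, Psmb9 and Psmb10 can take the places of Psmb5, Psmb6 and Psmb7 in the proteasome. Psmb8 had 146, 145, 221 and 194 CPM in C3H, against 184, 203, 170 and 184 CPM in B6, with overlap (log2 fold change -0.07, 95% interval -0.37 to 0.23, adjusted p = 0.783). Psmb9 had 67.1, 66.1, 92.1 and 75.9 CPM in C3H, against 86.2, 85.6, 63.8 and 81.3 CPM in B6, also with overlap (log2 fold change -0.07, 95% interval -0.36 to 0.21, adjusted p = 0.750). Neither passed the test. Psmb10 had 123, 121, 156 and 140 CPM in C3H, against 160, 185, 155 and 183 CPM in B6. It fell 1.26-fold although 1 C3H and 1 B6 library crossed (log2 fold change -0.34, standard error 0.10, adjusted p = 0.0391), and the call ended without C3H 1, C3H 3, C3H 5, B6 3 or B6 5, left out in turn (adjusted p up to 0.116). Of the constitutive partners Psmb5 fell to 17.5 ± 1.1 CPM in C3H, against 26.7 ± 2.5 CPM in B6 (SD, n = 4 each; adjusted p = 0.000414). Psmb6 and Psmb7 had log2 fold changes of -0.12 each and did not pass. The ratio of Psmb8 to Psmb5 was 1.43-fold higher in C3H and that of Psmb10 to Psmb7 1.16-fold lower (exact permutation p = 0.0286, adjusted p = 0.0327, for both). Without any 1 B6 library neither ratio passed (adjusted p up to 0.0762 and 0.0980). The ratio of Psmb9 to Psmb6 differed by 0.04 on the log2 scale (exact permutation p = 0.686). Erap1, the aminopeptidase that trims peptides in the endoplasmic reticulum, had 119, 115, 131 and 116 CPM in C3H, against 144, 122, 147 and 115 CPM in B6 (log2 fold change -0.14, 95% interval -0.35 to 0.08, adjusted p = 0.379).

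**Figure D4:**
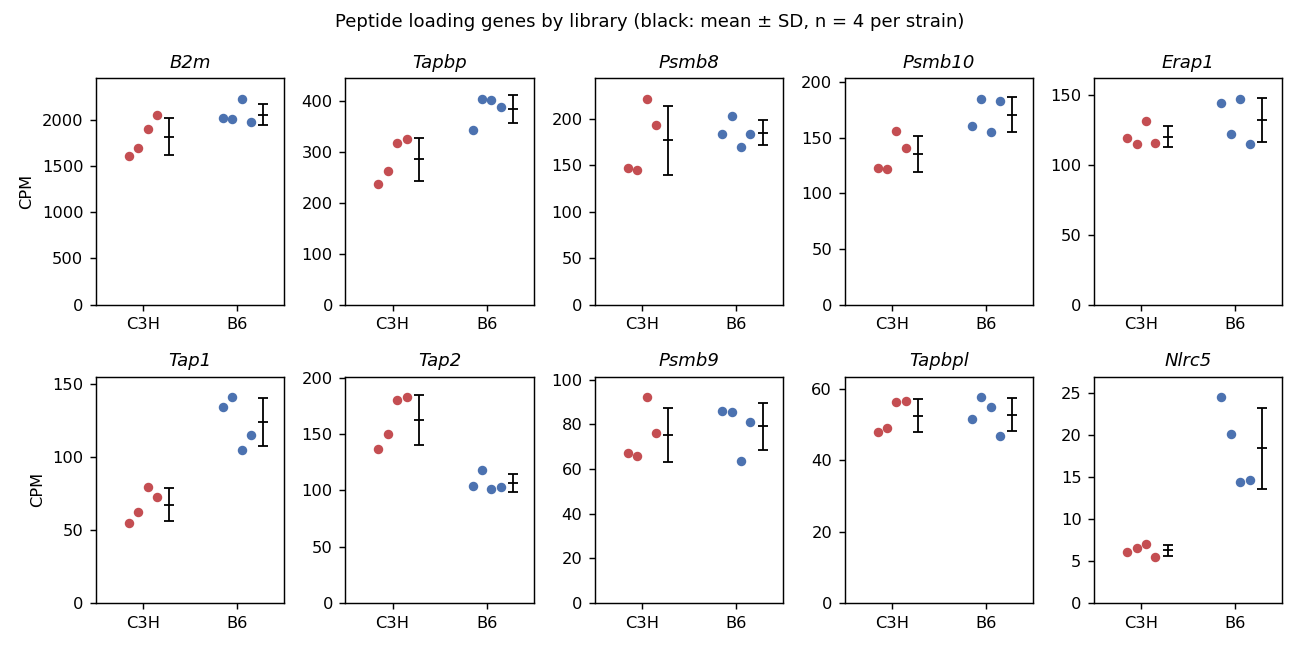
CPM of the 10 loading genes in the C3H (red, left) and B6 (blue, right) libraries, 1 point per library, with mean ± SD (n = 4 per strain) in black; each axis starts at 0. Nlrc5, Tap1 and Tapbp lie lower and Tap2 lies higher in C3H with no overlap, and the points of the other 6 genes overlap.

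Most members lie in the H2 complex of chromosome 17, among genes of other functions. Along the chromosome, as ordered in GENCODE M21, H2-D1 is followed by H2-Q1, H2-Q2, H2-Q3, H2-Q4, H2-Q5, H2-Q6, H2-Q7 and H2-Q10. The raised H2-Q1 and H2-Q10 stand at the ends of this Q block, and the 5 fallen genes and H2-Q4, which did not pass, lie between them. H2-Bl stands between H2-T22, which fell, and H2-T-ps, which did not pass. Psmb9, Tap1, Psmb8 and Tap2 are adjacent, and of these Tap1 fell and Tap2 rose. The 90 other tested genes listed for the region held no MHC class II gene. Of these 90 genes 13 rose and 5 fell (20.0%, near the 21.4% of all tested genes). Their median log2 fold change was -0.01. Those with the smallest adjusted p were C4a, a complement component (3.94-fold higher, adjusted p = 7.75e-06), Msh5, a meiotic mismatch repair gene (3.41-fold higher, adjusted p = 1.32e-05), and Rps18, a ribosomal protein gene (1.79-fold lower, adjusted p = 6.25e-05).

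**Figure D5:**
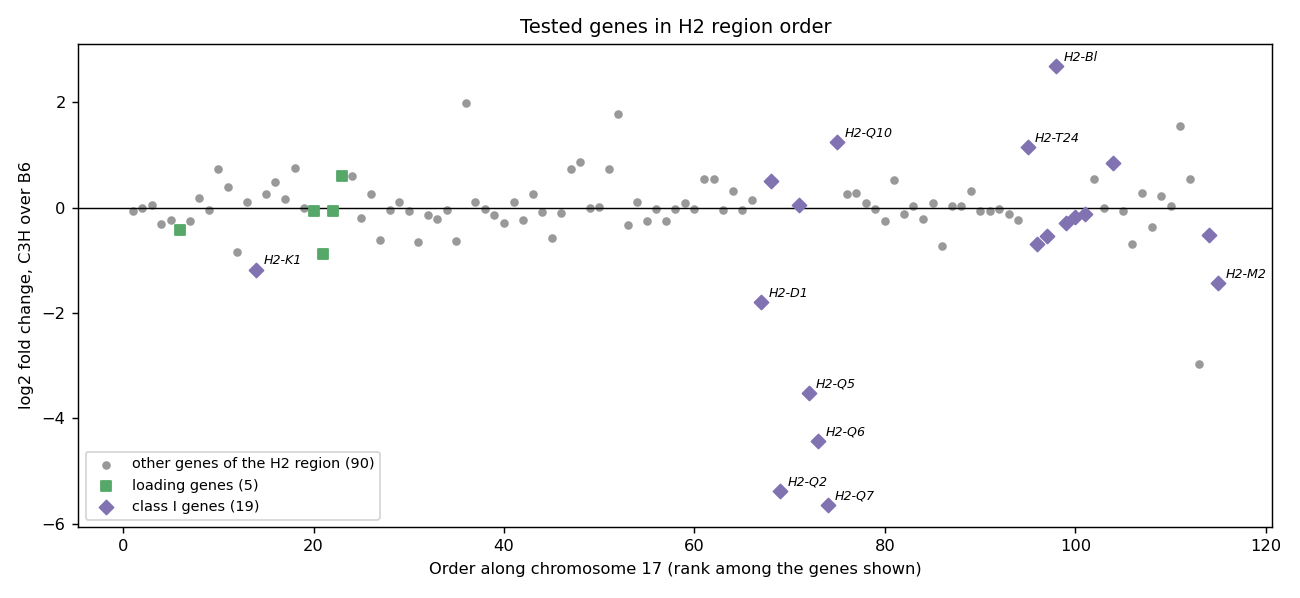
Log2 fold change, C3H over B6, of tested genes of the H2 region in their order along chromosome 17: 19 class I genes (diamonds; H2-Q3, with 0 counts in C3H, is left out), 5 loading genes (squares) and 90 other genes (grey). The Q block holds the largest falls, between the raised H2-Q1 and H2-Q10. Most of the 90 other genes, none of them MHC class II, lie near 0.

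Of 35 partners in peptide production and folding, such as proteasome subunits, calreticulin and ERp57, 5 fell and the others did not pass. This was 14.3% called, against 21.4% of all tested genes, with a median of -0.12. The 3 with the smallest adjusted p were Psmb5, the leucine aminopeptidase gene Lap3 (1.45-fold lower, adjusted p = 0.00860) and the proteasome gene Psma1 (1.23-fold lower, adjusted p = 0.0227). Of 24 regulators of class I transcription 1 rose and 4 fell (20.8% called, near the 21.4% of all tested genes; median -0.07). The fallen ones included Ciita, the class II transactivator, at 26.2 ± 1.2 CPM in C3H and 46.8 ± 9.0 CPM in B6, and Rfxank, a subunit of the RFX complex that NLRC5 and CIITA both need, at 21.5 ± 3.2 CPM in C3H and 31.0 ± 1.4 CPM in B6 (SD, n = 4 each; adjusted p = 0.000589 and 0.00353). Irf8, an interferon regulatory factor of myeloid and B cells, was 1.42-fold lower (adjusted p = 0.00461). Rfxap, another subunit of that complex, was the one that rose, to 9.30 ± 0.42 CPM in C3H, against 7.33 ± 0.49 CPM in B6 (SD, n = 4 each; adjusted p = 0.0203). Rfx5 (log2 fold change -0.19, adjusted p = 0.290) and Irf1 (-0.17, adjusted p = 0.211) did not pass; Rfxap, Rfx5 and Irf1 were picked for their roles after their values were seen. Of 32 interferon-stimulated genes 2 rose and 7 fell (28.1% called, beside 21.4% of all tested genes), with a median of -0.02. Among them were the guanylate-binding protein genes Gbp6 (9.26-fold lower, adjusted p = 1.66e-06) and Gbp2 (1.85-fold lower, adjusted p = 0.000134). The antiviral gene Mx2 was 2.40-fold higher (adjusted p = 0.000158).

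Of 7 tested class I-like genes outside H2 2 rose and 5 did not pass (28.6% called, beside 21.4% of all tested genes). Ulbp1, a ligand of the activating receptor NKG2D, rose 2.45-fold (adjusted p = 0.00709) and Mill2 1.48-fold (adjusted p = 0.0357). Of 13 tested receptors for class I 2 rose and 6 fell (61.5% called, against 21.4% of all tested genes). The list summed to 35.6 to 44.3 CPM in C3H, below the 59.6 to 67.7 CPM of B6. Cd8a held much of these sums, at 19.5 ± 3.7 CPM in C3H and 33.8 ± 2.3 CPM in B6 (SD, n = 4 each). Cd8a, Klrd1 and Cd8b1 are also among the T cell markers below, so the 2 lists are not separate results. The 2 that rose were Klra5 (4.51-fold) and Klrk1 (3.03-fold). Cd8a, Klra5 and Klrk1 were named after their values were seen. Klrd1, which encodes CD94, part of the receptor for Qa-1, had 2.72 ± 0.25 CPM in C3H and 10.6 ± 0.5 CPM in B6 (SD, n = 4 each; adjusted p = 2.92e-07). Cd8b1, the CD8 beta chain, was 4.01-fold lower (adjusted p = 2.03e-05). Pira2, a paired immunoglobulin-like receptor, was 6.74-fold lower (adjusted p = 4.60e-05). Klrd1, Pira2 and Klra5 have related genes in the mouse genome, and the sequence they share with these was not measured here.

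Levels of T cell markers also differed between the strains, and in bulk tissue fewer cells of a type and less RNA per cell cannot be told apart. Of 21 markers of T cells and intraepithelial lymphocytes 20 fell and 1 rose, with a median of -1.11. All were called, against 21.4% of all tested genes. Trbc2 (2.60-fold) and Ccl5 (3.20-fold) were among the fallen. The markers summed to 248 to 375 CPM in C3H, below the 575 to 641 CPM of B6. Of 15 tested B and plasma cell markers 2 fell (13.3%, against 21.4% of all tested genes called), Tnfrsf17 and Jchain, with sums of 1023 to 1298 CPM in C3H and 1409 to 1672 CPM in B6. Of 20 macrophage and dendritic cell markers 5 rose (25.0%, near the 21.4% of all tested genes called), led by Clec9a, Xcr1 and Sirpa, with sums of 448 to 507 CPM in C3H and 379 to 446 CPM in B6. Of 15 endothelial markers 5 rose, led by Tek, Kdr and Tie1, and 1 fell (40% called, against 21.4% of all tested genes). They summed to 196 to 255 CPM in C3H and 178 to 195 CPM in B6. Of 15 enterocyte markers 1 fell, Slc15a1 (6.67% called, against 21.4% of all tested genes), and the median of the list was -0.16. Of 14 fibroblast and smooth muscle markers, Myh11 and Col3a1 the most abundant, 0 passed in edgeR's test. Among these 14, 0 had an unadjusted p under 0.05, and DESeq2 and limma-voom called 0. Of 21 tested pancreas genes 3 rose and 2 fell (23.8% called, near the 21.4% of all tested genes). Spink1 and Zg16 were lower and Amy2b was higher. No marker of these lists was at 0 counts over all libraries. Within C3H the class I sum followed the enterocyte sum in order: libraries 1, 3, 4 and 5 had 66666, 74294, 90375 and 104513 CPM of enterocyte markers. Within B6 it did not: libraries 2, 3, 4 and 5 had 76726, 86857, 94919 and 84430 CPM, and the highest class I sum was in B6 3. The part of these cell markers in the class I differences was not tested.

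Several of these genes are close copies of each other. Of the 100-base stretches of the annotated transcripts, 14.01% of those of H2-Q5, 12.0% of H2-Q7, 10.8% of H2-Q6, 8.86% of H2-T22, 8.05% of H2-Q1, 8.01% of H2-Q10 and 7.06% of H2-T10 also occur in another gene. For H2-Q2 the share was 5.09%, for H2-D1 3.59%, for H2-T23 3.15%, for H2-K1 0.957% and for H2-Bl 0.185%, and for H2-T3, H2-T24, H2-Q3, H2-M3, H2-M2 and H2-M9 it was 0. The read length is not given in the sources used here, and for stretches of 50 bases the shares were higher. They were 36.4% for H2-Q5, 34.5% for H2-T22, 32.9% for H2-T10, 32.0% for H2-Q6, 29.4% for H2-T-ps and 26.4% for H2-Q7. For H2-Q4 the share was 21.8%, for H2-Q10 19.0%, for H2-Q2 16.1%, for H2-Q1 15.0%, for H2-T23 13.6% and for H2-D1 12.8%. It was 9.63% for H2-K1 and 9.40% for H2-Bl. Values of the genes that share stretches are uncertain, as reads may be split between copies. Reads from the k haplotype were aligned to a B6-derived genome, so that loss of reads at differing bases and lower expression in C3H cannot be told apart for the H2 genes. The shares above were taken from transcripts of a B6-derived assembly and do not cover sequences of the k haplotype. The part of the haplotype in rises, as of H2-Bl, and in genes with few or no counts in C3H was not tested. Tap1 and Psmb9 overlap on opposite strands, as do Erap1 and Cast. Tap2, Nlrc5, Psmb8, Tapbp, H2-Q4, H2-T10, H2-T22 and H2-T-ps also overlap other genes on the opposite strand. On the same strand, Tapbp overlaps Zbtb22 and H2-T-ps overlaps Gm7030. The strand setting of the counting is not given in the sources used here, so the values of all these genes are uncertain too.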

How the data were processed

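Bulk RNA-seq counts of mouse jejunum were used, 4 libraries of C3H and 4 of B6. Per the labels, libraries were made with the Illumina Stranded mRNA kit from 200 ng of RNA with an integrity number over 7. The deposited table holds raw counts per gene; per the submitters' processing notes, STAR 2.7.9a, HTSeq 2.0.2 and GRCm39 were used, while the sources used here do not state the annotation release, the strand setting or how multiply mapped reads were treated. Symbols (51948 of 56941 genes), gene order and exon lengths came from GENCODE M21 and promoters from RefSeq, both on GRCm38, so no GRCm39 coordinates are printed.

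Counts were fitted in edgeR 4.0.16 (R 4.3.3) after TMM scaling and the filterByExpr filter (minimum count 10, strain as group), the quasi-likelihood F test and Benjamini-Hochberg adjustment over 18025 genes at 0.05; expression values are TMM-scaled CPM. Ratios of members used raw counts plus 0.5 and an exact two-sided permutation test. Intervals are at 95%. Chi-square tests of library pairs within a strain gave 21.2 to 81.2 per degree of freedom, far above sampling noise, and each library was counted once. The method was tested on simulated data. The rule for named genes took every tested member, and from each other list at most 3 called genes in order of adjusted p (where no gene was called, the 2 of highest level). Genes named after their values were seen are marked as such.

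The members and lists were chosen with earlier results of these data known. Lists covered processing partners, transcription regulators, class I-like genes, receptors, interferon-stimulated genes, the H2 region and 7 tissue or cell types; 353 of 356 symbols were found. Alternatives were other scalings, filters, DESeq2 1.42.0, limma-voom (limma 3.58.1), robust dispersion, a threshold of 0.01, a replicate block and left-out libraries.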

Additional observations from a re-analysis of the deposited data

Results flagged for a closer look

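Of 76 groups of 4 libraries checked, 2 held a library far from the other 3 by Dixon's criterion at 95%, which chance gives in about 1 in 20 groups. H2-Q7, a Qa-2 gene, had 0.256 CPM in C3H 4, above the 0.0806 to 0.0981 CPM of the other C3H libraries; its gap to the nearest of them was 0.900 of the range. B2m, the class I light chain, had 2227 CPM in B6 4, above the 1975 to 2018 CPM of the other B6 libraries, with a gap of 0.832 of the range.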

How the results depend on the processing

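No called member changed direction in a setting that fitted it; of those that did not pass, H2-Q4, Psmb8, Psmb9 and Tapbpl, all with log2 fold changes near 0, changed sign in some settings. Leaving out the 2 libraries of each strain highest in all pancreas genes (C3H 3, C3H 5, B6 4 and B6 5) lowered the changed genes to 1816; doing so with the list shortened after seeing the data gave 1675. In both, 0 loading genes rose and 2 fell, with 4 of the 8 libraries. A threshold of 0.01 left 2326 changed genes and 2 fallen loading genes. Leaving out 1 library at a time gave 3099 to 3682 changed genes, 4 raised and 10 to 11 fallen class I genes, 1 raised and 2 to 4 fallen loading genes (2 without C3H 3 or B6 3). Over those fits the log2 ratio of Psmb8 to Psmb5 differed between strains by 0.39 to 0.62, that of Psmb10 to Psmb7 by -0.26 to -0.16, and that of Tapbp to Tap1 by 0.35 to 0.55. H2-M3 and Psmb10 also did not pass with library totals in place of TMM (adjusted p = 0.105 and 0.0540). DESeq2 called 4292 genes and limma-voom 3879, with the same numbers of class I and loading genes in each direction. Other causes of lost calls were not tested.

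Replicate numbers 3, 4 and 5 occur in both strains. Deviations of samples with the same number had correlations of 0.00576, 0.180 and -0.0517, and those with different numbers -0.245 to 0.0831. These values gave no clear sign of a pairing and cannot exclude one, and the main test used none. With these 6 libraries, 2919 genes changed with the replicate block and 3212 without it, and 4 class I genes rose and 10 fell in both.

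Counts of 23 for H2-Q7 and 44 for H2-Q6 over the C3H libraries limit the precision of their fold changes, and arms of 4 libraries limit the ratio tests to a smallest p of 0.0286.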
